A study of Mus musculus with 31 samples.

Results

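The IGF axis and its binding proteins were read as 10 genes, the growth hormone receptor Ghr, the growth factor Igf1, the acid-labile subunit Igfals and the binding proteins Igfbp1 to Igfbp7. Every probe whose symbol in the platform annotation is one of these 10 names was taken, which gave 14 probes of 25697 on the array and 10 genes of 16593. Ghr, Igfbp2, Igfbp4 and Igfbp7 have a pair of probes each and the other 6 genes have 1 probe. Probes were assigned to a gene by name only, with no measured value.

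Male C57BL/6JRj mice, 16 weeks old, were exposed for 14 days to intermittent hypoxia (IH) or to normoxic air (NO), and RNA was taken on day 15. For 8 h each day the air of the IH cages alternated, within every 60 s, between 30 s of 5% and 30 s of 21% inspired oxygen, and the NO mice shared strain, sex, age and handling. Mice were housed 5 per cage and exposed in these cages. Which mice shared a cage is not given, and the tests treat mice as independent. Liver was profiled in 7 IH and 8 NO mice, and epididymal adipose tissue in 8 IH and 8 NO mice, each on 1 single-colour bead array, 31 arrays in all. No allele, transgene or drug was used, the tissues were whole and unsorted, and no chip held both exposures of a tissue, so that chip and exposure cannot be told apart within a tissue.

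Growth hormone binds its receptor on hepatocytes and, through JAK2 and STAT5, drives transcription of Igf1 and Igfals. Most IGF1 in blood travels in a complex with the acid-labile subunit and IGFBP3 or IGFBP5, while IGFBP1, a short-lived protein that insulin represses and fasting and stress induce, adjusts the free fraction. Fat makes IGF1 of its own, and the binding proteins of a tissue, cut by proteases, set how much of it reaches the receptor.

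All 6 hepatocyte markers (Alb, Apoa1, Ttr, Serpina1a, Tat, Cps1) were detected in liver, and all 5 adipocyte markers on the array (Adipoq, Fabp4, Lep, Lipe, Plin1) in adipose tissue. In liver none of these 5 was detected on most arrays of a group, and no probe of them on more than 1 of 7 IH or 2 of 8 NO arrays. Of the hepatocyte markers, Apoa1 was detected on 8 of 8 IH and 8 of 8 NO adipose arrays, at median intensities of 185 and 191. Ttr was detected on 5 of 8 IH and 1 of 8 NO adipose arrays. The probes of Serpina1a were detected on 3 and 0 of 8 IH and on 8 and 7 of 8 NO adipose arrays. Alb, Tat and Cps1 were detected on no adipose array. Between 8712 and 9293 probes were detected on the IH liver arrays and between 8359 and 9158 on the NO liver arrays, against 10775 to 12340 on the IH adipose arrays and 10261 to 11932 on the NO adipose arrays. The array of IH adipose mouse 19 stood apart, with a median correlation of 0.840 with the other adipose arrays, where the next lowest was 0.901. It also carried all 4 genes of the epididymis that were looked for and on the array (Lcn5, Adam7, Defb21, Spag11a). Of these, 2 were detected on the array of IH adipose mouse 16 and 2, not the same pair, on that of NO adipose mouse 4. On that of IH adipose mouse 20, 1 was detected. Results in adipose tissue are therefore also given without mouse 19 and without mice 16, 19 and 4. Replicate numbers name mice within a group, and IH mice carry the numbers 15 to 22.

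The 250 bases before the start site of 4 binding protein genes are shown because these 4 carry the exposure and spread results below, Igfbp3, Igfbp6 and Igfbp7 in adipose tissue and Igfbp1 in liver. The sequences are RefSeq's on GRCm38.p6, at chr11:7197537-7197786 on the plus strand for Igfbp1, chr11:7213924-7214173 on the minus strand for Igfbp3, chr15:102143936-102144185 on the plus strand for Igfbp6 and chr5:77408046-77408295 on the minus strand for Igfbp7. Capitals mark matches, on either strand, to ACGTG (core of the element that hypoxia-inducible factors bind), CAAAACA (core of the insulin response element that FOXO factors bind) or TTCNNNGAA (the element that STAT5 binds).
Igfbp1: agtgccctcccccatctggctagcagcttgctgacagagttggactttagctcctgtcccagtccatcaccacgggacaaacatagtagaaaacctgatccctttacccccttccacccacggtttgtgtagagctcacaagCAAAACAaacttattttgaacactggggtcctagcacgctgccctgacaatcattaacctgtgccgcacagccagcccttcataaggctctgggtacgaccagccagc
Igfbp3: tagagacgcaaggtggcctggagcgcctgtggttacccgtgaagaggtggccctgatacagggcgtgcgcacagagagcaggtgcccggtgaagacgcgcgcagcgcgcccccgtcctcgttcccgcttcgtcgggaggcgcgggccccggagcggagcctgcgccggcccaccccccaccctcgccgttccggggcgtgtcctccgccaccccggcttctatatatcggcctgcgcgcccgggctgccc
Igfbp6: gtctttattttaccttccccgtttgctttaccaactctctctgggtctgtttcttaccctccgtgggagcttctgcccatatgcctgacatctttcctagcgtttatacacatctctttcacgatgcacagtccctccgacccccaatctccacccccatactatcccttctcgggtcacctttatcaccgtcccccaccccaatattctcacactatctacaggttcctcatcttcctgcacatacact
Igfbp7: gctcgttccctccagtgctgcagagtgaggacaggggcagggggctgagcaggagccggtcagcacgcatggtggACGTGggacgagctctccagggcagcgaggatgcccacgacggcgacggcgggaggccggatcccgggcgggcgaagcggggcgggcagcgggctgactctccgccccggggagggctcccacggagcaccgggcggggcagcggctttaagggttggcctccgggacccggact

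Igfbp1 held 1 CAAAACA and Igfbp7 held 1 ACGTG, and the windows of Igfbp3 and Igfbp6 held none of the 3 motifs. Of the 32851 promoter windows of this length in the table, 16.6% held ACGTG, 5.56% held CAAAACA and 7.02% held TTCNNNGAA. Over all 14 windows of the 10 genes, ACGTG stood in 2 (Igfbp2, Igfbp7), CAAAACA in 1 and TTCNNNGAA in 2 (both of Igfals). A match is only a description of the letters. In the annotation Igfbp1 and Igfbp3 are neighbouring coding genes on chromosome 11, and Igfbp2 and Igfbp5 are neighbours on chromosome 1.

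The first comparison asked whether 14 days of IH changed the hormone receptor, the growth factor and its carriers in the liver, their main source in blood. None of the 8 members measured there passed the test, and on the brightest probe of each gene the intervals of Ghr, Igf1, Igfals and Igfbp4 stayed within 0.38 of 0 on the log2 scale. Of the 6443 liver genes tested with limma, 0.931% passed an adjusted p of 0.05, against 0 of the 8 members, and 0 members had an unadjusted p of 0.01 or less, against 6.24% of all genes, or an unadjusted p under 0.05, against 16.9% of all genes. With the SAM statistic 0 members passed as well. Igfbp3 and Igfbp6 were not tested in liver, because they were detected on too few arrays.

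Ghr, the receptor for growth hormone, had an intensity of 3863, 5834 and 6387 (lowest, median and highest) in IH livers, against 4417, 5479 and 6898 in NO livers. The groups overlapped over most of their range, with IH mouse 16 lowest and NO mouse 1 highest. On the normalized log2 scale the means were 12.32 ± 0.29 in IH and 12.37 ± 0.22 in NO livers (SD, n = 7 and 8), a difference of -0.045 with a 95% interval of -0.33 to 0.24 (limma, adjusted p = 0.908). The other probe of Ghr, annotated to another RefSeq transcript of the gene, gave 1129, 1699 and 2113 in IH livers and 959.8, 1238 and 2192 in NO livers, again overlapping, with a log2 difference of 0.27 ± 0.20 (SE, limma adjusted p = 0.525).

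Igf1, the growth factor itself, stood at 6620.4, 7518 and 9029.5 in IH livers and at 5631, 8402 and 9536 in NO livers. All 7 IH values lay inside the range of the NO values. On the log2 scale the groups differed by -0.080, with an interval of -0.33 to 0.17 (limma, adjusted p = 0.782), so a fall by more than 0.33 on the log2 scale lay outside the interval.

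Igfals encodes the liver protein that completes the large IGF complex of plasma, and its intensity was 3309, 4983 and 6620.4 in IH livers, against 3447, 4808 and 6273 in NO livers. IH mice gave both the lowest and the highest value. Their log2 difference was 0.029, with an interval of -0.33 to 0.38 (limma, adjusted p = 0.956).

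Igfbp1 was the most variable member in liver. Its intensity was 325, 299, 1268, 1046, 1404, 133 and 172 in IH mice 16 to 22, against 820.2, 244, 230.0, 2706, 527, 143, 230.8 and 1673 in NO mice 1 to 8. High and low livers occurred in both groups, and the probe was detected in 5 of 7 IH and 7 of 8 NO livers.

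The SD of Igfbp1 within groups was 2.13 on the log2 scale, where the median over all 6443 liver genes was 0.29, and only 12 of them had a higher SD. Against that spread the difference of -0.19 had an interval of -2.30 to 1.91 (limma, adjusted p = 0.946), and a change of up to several-fold in either direction could not be detected. The 3 genes that followed Igfbp1 most closely over the 15 livers, after the exposure means were taken off, were Ppp1r15a, a stress-induced partner of protein phosphatase 1 (Pearson r 0.90), Wsb1 (0.88) and Tmc7 (0.88). Igfbp1 was singled out for this after its values had been seen.

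Igfbp2, another binding protein that circulates, had intensities of 1031, 1711 and 2824 in IH livers and 1109.8, 2017 and 3890.0 in NO livers. The groups overlapped over most of their range, with IH mouse 19 lowest and NO mouse 1 highest on this probe. The log2 difference was -0.062 ± 0.31 (SE, limma adjusted p = 0.946), and the other probe gave -0.16 ± 0.37.

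Igfbp4, an inhibitory binding protein, had the smallest spread of the members in liver, an SD of 0.17 within groups. Its brighter probe gave 9029.5, 9746 and 13552 in IH livers, against 9474, 10405 and 12384 in NO livers, and a log2 difference of -0.010 with an interval of -0.22 to 0.20. The other probe stood higher in IH livers, at 5653, 8028 and 8776, against 5412, 6224 and 8190.0 in NO livers, a log2 difference of 0.28 ± 0.11 (SE) that did not pass (limma, unadjusted p = 0.0264, adjusted p = 0.219).

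Igfbp5 and Igfbp7, which bind IGFs in the tissue matrix with high and low affinity, showed no called change in liver. Igfbp5 had 156, 399.6 and 657 in IH livers, with IH mouse 17 not detected, against 211, 314 and 544 in NO livers, and a log2 difference of 0.069 ± 0.44 (SE). Igfbp7 had 2404, 3264 and 4484 in IH livers, against 2370.4, 3664 and 4243 in NO livers. Its log2 difference was -0.16 with an interval of -0.52 to 0.20 (limma, adjusted p = 0.688), and the groups overlapped.

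Among the brightest probes of the members Igfbp7 had the smallest p in liver, and the genes most like it over the 15 livers were Dnase1l3 (Pearson r 0.96), Chst15 (0.87) and Ets1 (0.85). Those most like Igf1 were Klkb1 (0.93), Psma7 (0.91) and Whamm (0.89). These correlations describe arrays that share chips. Igfbp3 was detected in 2 of 7 IH and 2 of 8 NO livers, and Igfbp6 in 0 of 7 IH and 1 of 8 NO livers. The second probe of Igfbp7 was detected on 0 of the 31 arrays.

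**Figure D1:**
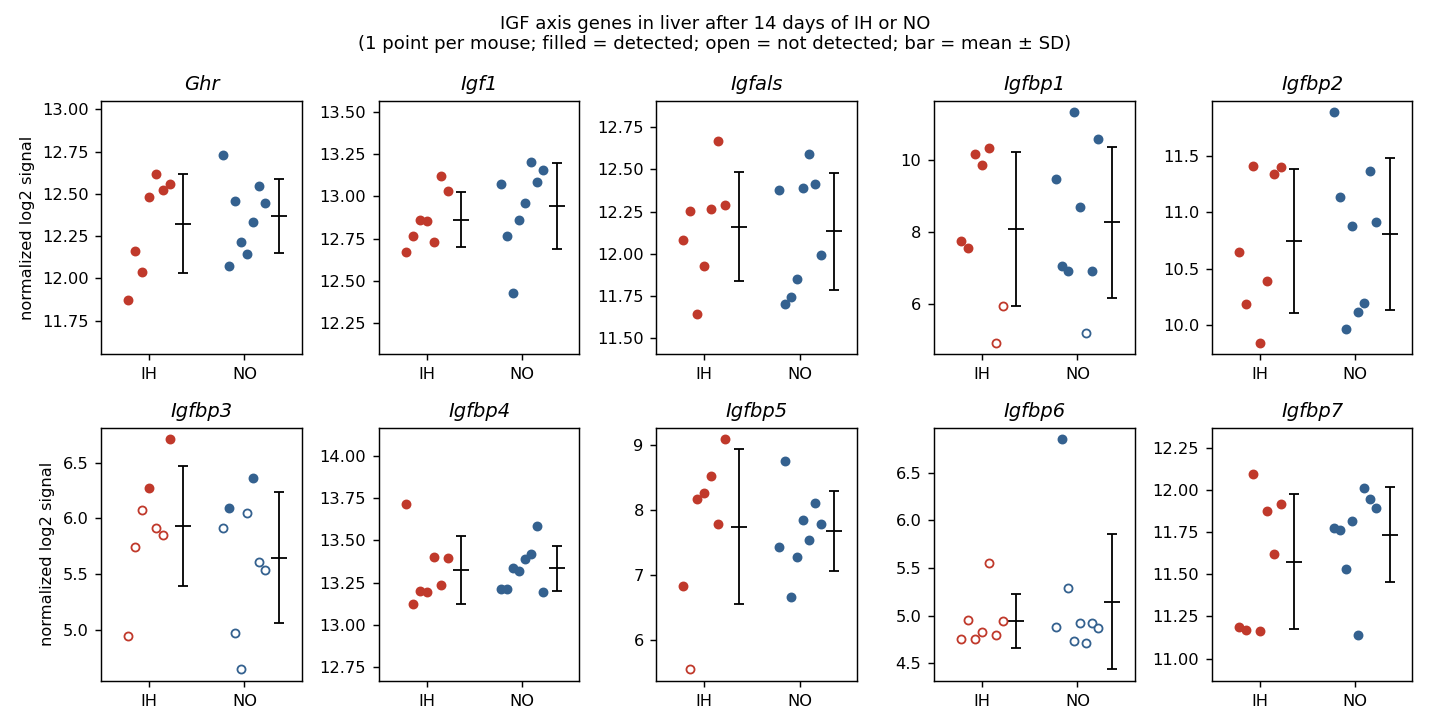
Normalized log2 signal of the 10 genes in liver (y axis, its own range in each panel) in IH and NO mice (x axis), 1 point per mouse, filled where detected, with the mean and SD beside each group. The groups overlap in every panel, and Igfbp1 spreads over the widest range, from 4.92 to 11.34.

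In adipose tissue the same comparison gave 3 called members of the 9 tested, and all 3 were binding proteins. Igfbp7 was lower in IH mice, and Igfbp3 and Igfbp6 were higher. In this tissue 32.1% of the 8207 genes tested passed an adjusted p of 0.05, so that 3 of 9 is close to the share of all genes. Over all genes 17.6% passed as higher and 14.5% as lower, against 2 and 1 of the 9 members, and the median log2 difference was -0.29 over the 9 members and 0.11 over all genes. Without mouse 19 these medians were -0.013 and 0.13. In bulk tissue, fewer cells of a type and less RNA per cell cannot be told apart.

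Igfbp7, a matrix protein made by vascular and stromal cells, had an intensity of 7500.2, 10155 and 11788 in IH adipose tissue, against 14212, 17318 and 21100.1 in NO adipose tissue. Every IH value lay below every NO value, with IH mouse 22 highest among the IH mice and NO mouse 8 lowest among the NO mice. The log2 means were 13.26 ± 0.21 in IH and 14.06 ± 0.19 in NO mice (SD, n = 8 each), a difference of -0.80 ± 0.11 (SE, 1.74-fold lower in IH, limma adjusted p = 1.77e-05). The two-sided exact permutation test over mice gave p = 1.55e-04, the smallest that 12870 splits allow.

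The difference of Igfbp7 was -0.74 without mouse 19 (limma, adjusted p = 1.61e-05) and -0.75 without mice 16, 19 and 4 (adjusted p = 1.34e-04), and it passed with chip as a random block (adjusted p = 5.82e-05). Here and below that block cannot separate chip from exposure within a tissue, because no chip held both exposures of a tissue. Only the brighter of its probes was measured. Its SD within groups, 0.20, was below the median of 0.32 over all adipose genes.

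Igfbp3, the main IGF carrier of plasma and also a secreted product of stromal cells, was detected in 8 of 8 IH and 4 of 8 NO adipose samples. Its intensity was 171, 179 and 233 in IH mice, against 141, 152 and 171 in NO mice, near the limit of detection. The probe met the detection filter mainly through IH mice, the group where it was higher. The groups met at a single value, that of IH mouse 21 and NO mouse 8. On the log2 scale the difference of Igfbp3 was 0.79 ± 0.17 (SE, limma adjusted p = 0.00193), with all 8 IH values above the NO mean. Where values were quantile-normalized with no correction for background it was 0.27 (adjusted p = 0.00656). It passed without mouse 19 (adjusted p = 0.00314), without mice 16, 19 and 4 (adjusted p = 0.00710) and with chip as a random block (adjusted p = 0.00372).

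Igfbp6, which prefers IGF2 over IGF1, had an intensity of 718, 1088 and 1659 in IH adipose tissue, against 573, 716 and 1098 in NO adipose tissue. The groups overlapped, and 7 of 8 IH values lay above the NO mean. The difference was 0.64 ± 0.21 on the log2 scale (SE, 1.56-fold, limma adjusted p = 0.0306). The call was close to the threshold, and it was lost when any 1 of 7 mice (NO 1, 2, 3 and 4, IH 15, 18 and 21) was left out, with adjusted p up to 0.0604, while it held without mouse 19 (adjusted p = 0.0108) and with chip as a random block (adjusted p = 0.0486).

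**Figure D2:**
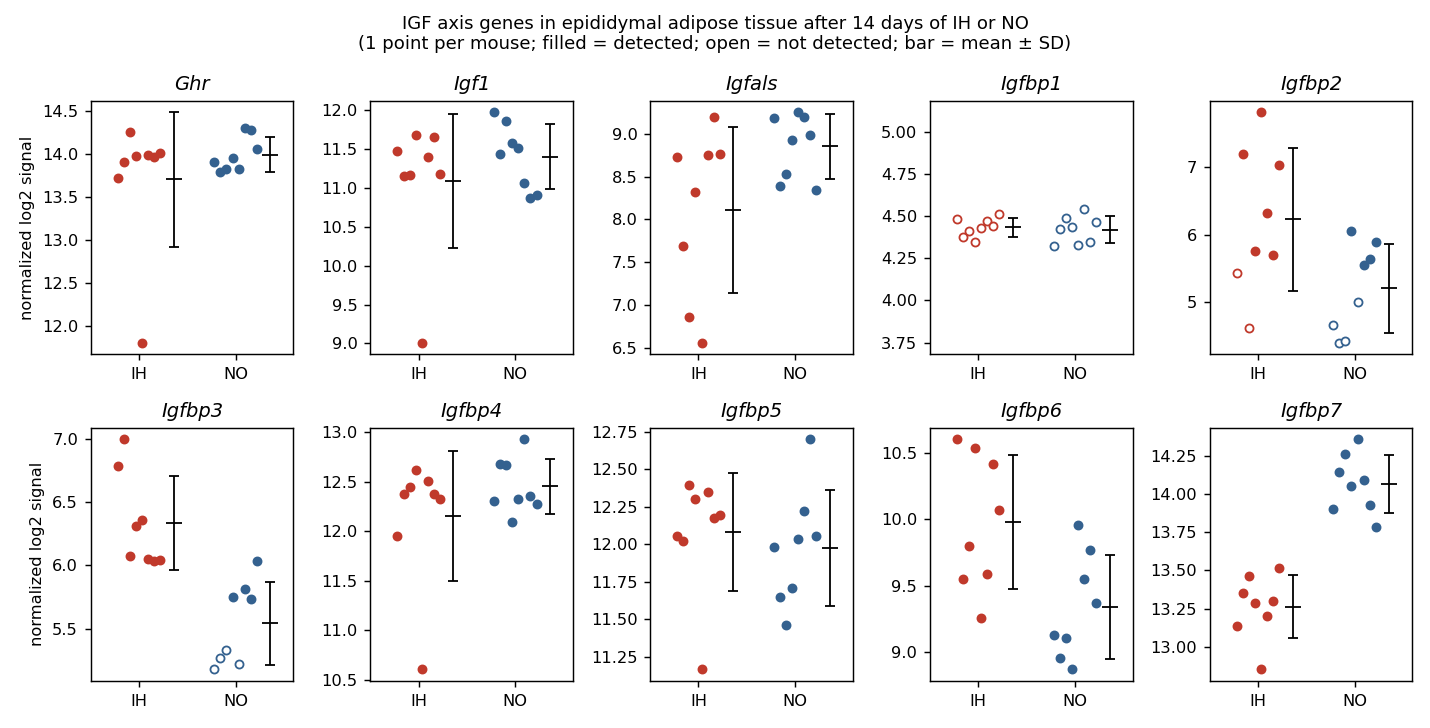
Normalized log2 signal of the 10 genes in epididymal adipose tissue (y axis, its own range in each panel) in IH and NO mice (x axis), 1 point per mouse, filled where detected, with the mean and SD beside each group. IH and NO mice do not overlap in Igfbp7, where the means were 13.26 and 14.06, and the low IH point in Ghr, Igf1, Igfbp4 and Igfbp5 is mouse 19.

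Igfbp2 had 127, 172 and 329.6 in IH adipose tissue, where 6 of 8 samples were detected, against 119, 145 and 172 in NO adipose tissue, where 4 of 8 were. Its log2 difference was 1.02 ± 0.41 (SE, 7 of 8 IH values above the NO mean) and did not pass (limma, adjusted p = 0.0630), and it was 0.80 without mouse 19 and 0.39 with no correction for background. Without NO mouse 4, IH mouse 15 or IH mouse 17 it passed, with adjusted p = 0.0487, 0.0496 and 0.0168.

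Igfals had 199.6, 477 and 691 in IH adipose tissue, against 431, 603 and 714 in NO adipose tissue. IH mice 16, 17, 18 and 19 lay below all NO mice and the other 4 IH mice overlapped with them. The log2 difference of -0.75 ± 0.34 (SE) did not pass (limma, adjusted p = 0.104), and it was -0.52 without mouse 19 and -0.50 with no correction for background.

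Igf1 made in fat stood at 621, 2603 and 3390.1 in IH mice, against 1977, 2947 and 4111 in NO mice. The value of 621 was that of mouse 19, and the other 7 IH mice lay within the NO range. The log2 difference was -0.31 with an interval of -0.98 to 0.36 (limma, adjusted p = 0.481), and -0.013 without mouse 19 (adjusted p = 0.962).

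Igfbp4, the inhibitory binding protein that the protease PAPP-A cuts, had 1664, 5434 and 6403 in IH adipose tissue and 4469, 5292 and 7913 in NO adipose tissue. Mouse 19 was again the lowest, and the log2 difference of -0.30 ± 0.24 (SE) was -0.081 without it, neither called. Igfbp5, with 2402, 4766 and 5502 in IH and 2925, 4225 and 6768 in NO mice, differed by 0.11 ± 0.19 on the log2 scale (SE, limma adjusted p = 0.701), and by 0.24 without mouse 19, the lowest here too. Igfbp1 was detected in 0 of 8 IH and 0 of 8 NO adipose samples.

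The probes of Ghr in adipose tissue gave different answers. The brighter one had 3695, 16167 and 19728 in IH mice, against 14374, 15755 and 20456 in NO mice, with the IH mice inside the NO range except mice 15 and 19. Its log2 difference was -0.29 with an interval of -0.85 to 0.28 (limma, adjusted p = 0.433), and -0.018 without mouse 19. The dimmer one had 379, 1370.1 and 1982 in IH mice, against 2215, 3239 and 3820.3 in NO mice, and no IH value reached a NO value.

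That dimmer probe differed by -1.37 ± 0.31 on the log2 scale (SE, 2.58-fold lower in IH, limma on single probes, adjusted p = 0.00246, two-sided exact permutation p = 1.55e-04). Without mouse 19 the difference was -1.08 (adjusted p = 8.28e-05), and with chip as a random block -1.35 (adjusted p = 0.00562). The platform ties each probe to another RefSeq transcript of the gene, and mouse Ghr is known to yield, by alternative splicing, both the receptor and a soluble growth hormone binding protein. Which transcript each probe read was not checked. With the mean of both probes as its level, Ghr passed in adipose tissue (-0.83, adjusted p = 0.030). Probes of 1 gene whose IH minus NO differences lay more than 1 apart on the log2 scale were found for 18.4% of the 1984 adipose genes with several probes, against 0.883% of 1472 such genes in liver.

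**Figure D3:**
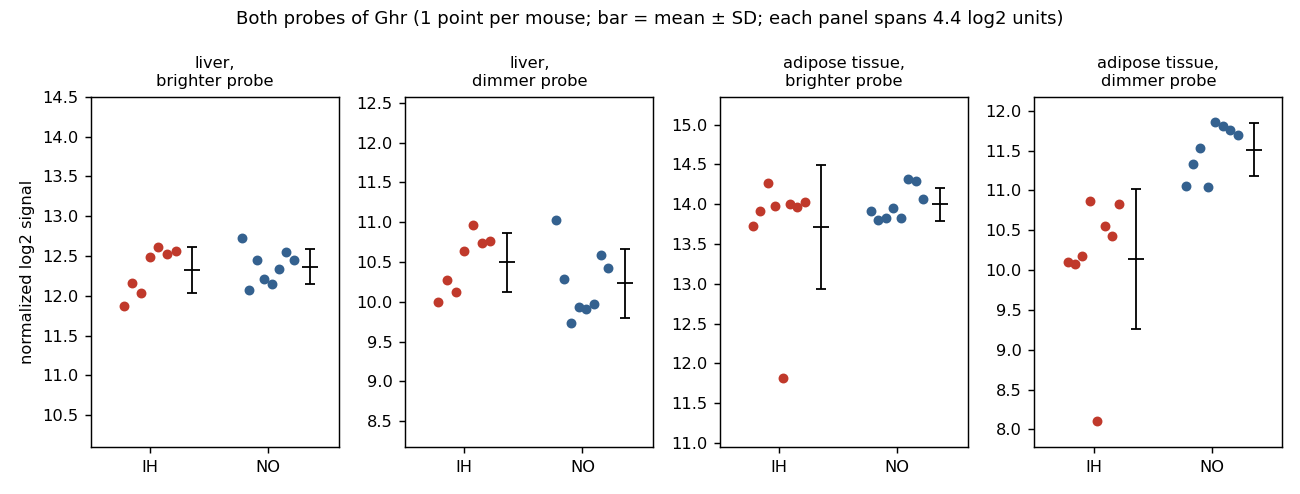
Normalized log2 signal of both Ghr probes in liver and in adipose tissue (y axis, each panel covering the same number of log2 units) in IH and NO mice (x axis), 1 point per mouse with the mean and SD. The dimmer probe in adipose tissue separates the groups, with a difference of -1.37, and the brighter probe does not, with -0.29.

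Markers of other cell types were read in the same adipose tissue. The summed intensity of the 6 fibroblast markers, of which Lrat was not detected, was 14889 to 24806 in IH and 24578 to 37708 in NO adipose tissue. Col3a1 passed as lower in IH on its brighter probe (-3.20 on the log2 scale) and Col1a1 as higher (1.42), and the other 3 tested did not pass on the brightest probe of each. The dimmer Col3a1 probe averaged 5.98 ± 0.34 in IH and 6.15 ± 0.81 in NO mice (SD, n = 8 each). The dimmer Dcn probe, which did not stand for its gene in the test, averaged 10.87 ± 0.56 in IH and 12.30 ± 0.41 in NO mice (SD). The summed intensity of the 5 adipocyte markers, all detected, was 17230 to 46794 in IH and 38637 to 53638 in NO mice. Of these Fabp4 passed, lower in IH (-3.34). The 4 smooth muscle markers, of which Cnn1 was detected on 1 of the 16 arrays, summed to 23991 to 63521 in IH and 11497 to 37269 in NO mice, and Acta2 (0.56) and Myh11 (1.12) passed as higher in IH. The 5 endothelial markers, of which Stab2 was detected on 1 IH and 1 NO array and Kdr on 1 IH and 7 NO arrays, ranged over 1276 to 4821 in IH and 3420.0 to 5325 in NO mice. Kdr alone of the 4 tested passed, lower in IH (-0.62). It lay near the limit of detection, with median intensities of 137 in IH and 154 in NO mice, and met the detection filter mainly through NO mice. The macrophage markers on the array, of which Clec4f was not detected, summed to 1265 to 2577 in IH and 2094 to 3553 in NO mice, and of the 2 tested Adgre1 passed, lower in IH (-2.81), and Mrc1 did not (-0.21). The mesothelial markers summed to 1685 to 5566 in IH and 2315 to 5359 in NO mice, with Krt19 higher (1.34) and Wt1 lower (-0.81) in IH, the last no longer passing without mouse 19 (adjusted p = 0.0529). Their part in the differences of Igfbp3, Igfbp6, Igfbp7 and Ghr was not tested.

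**Figure D4:**
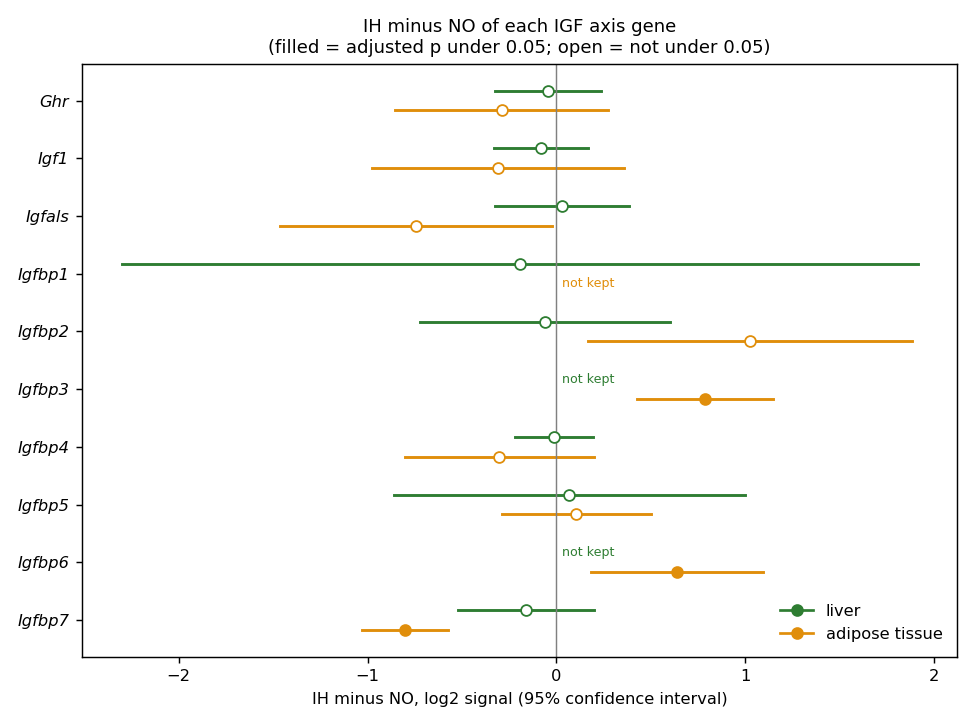
IH minus NO on the log2 scale (x axis) for each of the 10 genes (y axis), in liver and in adipose tissue, with the 95% confidence interval; filled points passed an adjusted p of 0.05. In adipose tissue Igfbp3 (0.79), Igfbp6 (0.64) and Igfbp7 (-0.80) passed, and in liver none did.

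Whether the effect of IH differed between the tissues was tested on all 31 arrays together, as the IH effect in liver minus the IH effect in adipose tissue. Of the 8654 genes, 22.1% passed, against 1 of the 10 members. This was Igfbp7, with a difference of 0.64 ± 0.20 (SE, limma adjusted p = 0.0207), since its log2 difference was -0.16 in liver and -0.80 in adipose tissue. It was 0.59 without adipose mice 16, 19 and 4 (adjusted p = 0.0478), and with chip as a random block it did not pass (0.60, adjusted p = 0.0797). Of the 10 members, Igfbp1 was detected on no adipose array, and Igfbp6 in 0 of 7 IH and 1 of 8 NO livers. No effect of Igfbp1 in adipose tissue or of Igfbp6 in liver was therefore measured, and for these genes the tissues could not be compared.

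For the dimmer Ghr probe the effects differed by 1.64 ± 0.38 (SE, limma on single probes, adjusted p = 0.00186), from 0.27 in liver and -1.37 in adipose tissue. It passed also with chip as a random block (adjusted p = 0.00919). For Igf1 the difference between the tissues was 0.23 with an interval of -0.50 to 0.95, and for Igfals 0.78 with an interval of -0.04 to 1.61 (limma, adjusted p = 0.690 and 0.169).

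Liver and adipose tissue differed in 9 of the 10 members, in IH and in NO mice, where 78.3% and 73.9% of all 8654 genes differed. No chip held both tissues of an exposure, so that chip and tissue cannot be told apart in these comparisons. Igf1, Igfals, Igfbp1, Igfbp2 and Igfbp4 were higher in liver, as were 31.8% of all genes in IH and 29.9% in NO mice. Ghr, Igfbp5, Igfbp6 and Igfbp7 were higher in adipose tissue, as were 46.5% of all genes in IH and 44% in NO mice. Igfbp3, near the limit of detection in both tissues, did not pass, with -0.32 in IH and 0.18 in NO mice. The following values are log2 levels after all arrays were normalized together.

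Igfbp2 averaged 10.75 ± 0.64 in IH liver and 6.21 ± 1.04 in IH adipose tissue (SD, n = 7 and 8), a difference of 4.54 ± 0.37 (SE, 23.3-fold, limma adjusted p = 2.35e-12). In NO mice it averaged 10.81 ± 0.67 in liver and 5.22 ± 0.58 in adipose tissue (n = 8 each), a difference of 5.59 ± 0.36. The second Igfbp2 probe was not well above background on any NO adipose array, and NO liver lay at least 25.3-fold higher.

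Igfals was higher in liver by 4.07 ± 0.29 in IH mice and by 3.29 ± 0.28 in NO mice (SE). Igf1 was higher in liver by 1.78 ± 0.26 in IH and 1.55 ± 0.25 in NO mice, and no liver value of Igf1 overlapped with an adipose value of the same exposure. Igfbp4 was higher in liver by 1.17 ± 0.19 in IH and 0.88 ± 0.19 in NO mice. From low to high its levels ran IH adipose (12.15), NO adipose (12.45), IH liver (13.32) and NO liver (13.33), where the neighbours of 1 tissue did not pass the test.

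Igfbp1 was not well above background on any adipose array. Its mean in IH liver was at least 7.12-fold, and that in NO liver at least 7.55-fold, above adipose tissue of the same exposure. For such a bound the dim side is, on each array, the higher of the probe's own signal and the lowest detected signal.

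On the adipose side, Igfbp5 averaged 7.77 ± 1.18 in IH liver and 12.08 ± 0.39 in IH adipose tissue, and 7.69 ± 0.61 in NO liver and 11.98 ± 0.39 in NO adipose tissue. The differences of -4.31 ± 0.34 and -4.28 ± 0.33 (SE, limma adjusted p = 1.02e-12 and 6.18e-13) correspond to 19.9-fold and 19.4-fold lower levels in liver. Igfbp6 was not well above background on any IH liver array, where adipose tissue lay at least 13.6-fold higher, and in NO mice only 1 of 8 livers was detected.

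Igfbp7 was lower in liver by 1.69 ± 0.14 in IH mice and by 2.33 ± 0.14 in NO mice on the log2 scale (SE). Its levels ran, from low to high, IH liver (11.58), NO liver (11.74), IH adipose (13.26) and NO adipose (14.06), and of neighbours in this order only the liver groups overlapped. The brighter Ghr probe was lower in liver in both exposures (-1.39 ± 0.22 in IH and -1.63 ± 0.22 in NO mice), whereas the dimmer one differed by -1.27 ± 0.27 in NO mice (adjusted p = 8.80e-05) and by 0.36 ± 0.28 in IH mice (limma on single probes, adjusted p = 0.231).

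**Figure D5:**
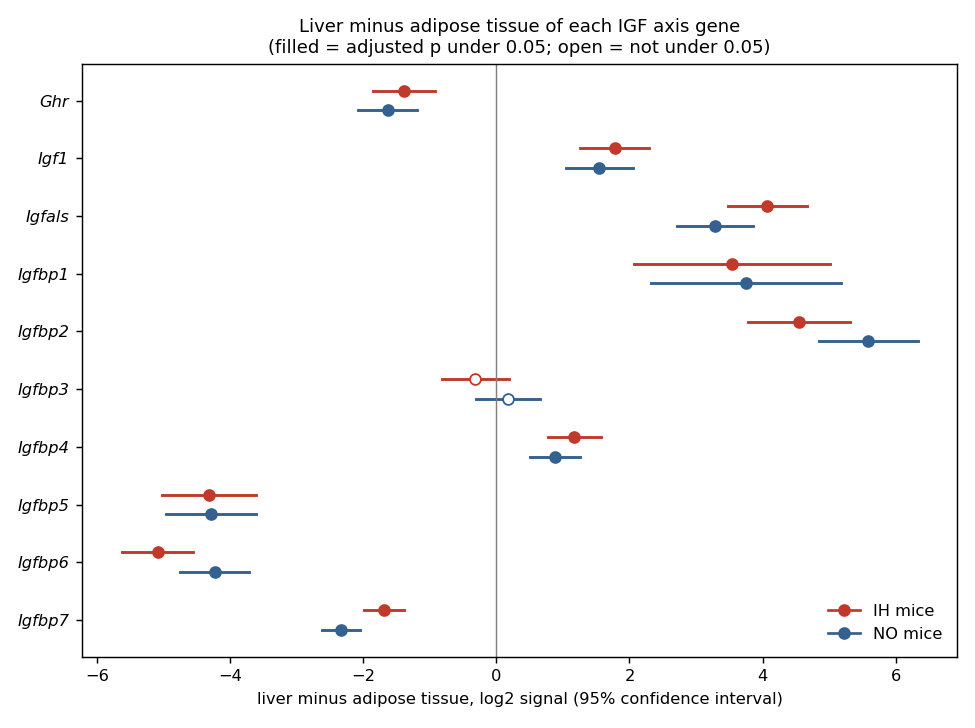
Liver minus adipose tissue on the log2 scale (x axis) for each of the 10 genes (y axis), in IH and in NO mice, with the 95% confidence interval; filled points passed an adjusted p of 0.05. Values right of 0 are higher in liver, with Igfbp2 at 4.54 and 5.59 and Igfals at 4.07 and 3.29 in IH and NO mice, and Igfbp3 did not pass. The Igfbp1 points in both exposures and the Igfbp6 point in IH mice rest on a tissue where no array was above background, and the Igfbp6 point in NO mice on 1 detected liver of 8.

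The rest of the axis was read from a list of 31 genes of IGF2, the receptors, hormone signalling and binding protein proteases, of which 28 were on the array. In liver 0 of the 11 tested passed, and 0 had an unadjusted p of 0.01 or less, while 1 (Grb14, 0.40 on the log2 scale) had one under 0.05. That was the brighter Grb14 probe, and the dimmer one averaged 7.61 ± 0.27 in IH and 7.54 ± 0.32 in NO livers (SD). In adipose tissue 3 of the 17 tested passed, all 3 lower in IH mice, where 14.5% of all genes passed as lower. These 3 were proteases of binding proteins and a related secreted protein. The listed proteases Htra1 and Htra3 had higher means in IH adipose tissue, and neither passed. On their brighter probes the log2 means were 10.34 in IH and 10.18 in NO mice for Htra1, and 12.11 and 11.38 for Htra3.

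Adam9, a membrane protease that was found to cleave IGFBP5 in human cells, had an intensity of 172, 199 and 246 in IH adipose tissue, against 768, 972 and 1091 in NO adipose tissue. The groups were far apart. The difference was -3.13 ± 0.16 on the log2 scale (SE, 8.75-fold lower in IH, limma adjusted p = 4.77e-11), from 1 probe. With no correction for background it was -2.12. In liver the same probe had 806, 919 and 1070.3 in IH and 671, 875 and 1008 in NO mice, and the effects of the tissues differed by 3.28 (adjusted p = 2.53e-14).

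Adam12, which cleaves IGFBP3 and IGFBP5, had 122, 144 and 161 in IH adipose tissue, detected in 4 of 8, against 165, 175 and 211 in NO adipose tissue, detected in 8 of 8. No IH value reached a NO value, and the log2 difference was -0.95 ± 0.18 (SE, limma adjusted p = 5.86e-04), or -0.29 where no background was corrected for (adjusted p = 0.00168). Adam12 lay near the limit of detection and met the detection filter mainly through NO mice, the group where it was higher. Esm1, an endothelial proteoglycan with an IGFBP-like domain, had 141, 153 and 171 in IH mice, against 145, 223 and 346 in NO mice, with overlap and a log2 difference of -1.23 ± 0.29 (adjusted p = 0.00416), or -0.50 with no correction for background (adjusted p = 0.00868). Neither Adam12 nor Esm1 was detected on any liver array, so that their effects could not be compared between tissues. The effects of Grb14, an adaptor that inhibits insulin receptor signalling, differed between tissues on its brighter probe (1.22 ± 0.42, adjusted p = 0.0344). Its dimmer probe was detected in 2 of 8 IH and 4 of 8 NO adipose samples.

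Of the ligands and receptors outside the 10 genes, named here after their values had been seen, Igf2 was detected in 8 of 8 IH and 8 of 8 NO adipose samples, with 870.0, 1196 and 2313 in IH and 775, 1364 and 2263 in NO mice. In liver it was detected in 0 of 7 IH and 2 of 8 NO samples. Igf1r was detected in 6 of 8 IH and 1 of 8 NO adipose samples and was not tested, and Insr was detected on 0 of the 31 arrays.

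Relations between members across mice were computed for 13 pairs chosen by role, after exposure means were taken off. None passed after adjustment over the 13. The closest was Igf1 with Igfals in the 15 livers, with Pearson's r 0.65 (permutation p = 0.00872, adjusted p = 0.0808) and Spearman's rho 0.66 (permutation p = 0.00876, adjusted p = 0.114). It was 0.53 without the 2 livers farthest from the median of Igf1, 0.48 within the 7 IH livers and 0.75 within the 8 NO livers. Igf1 and Ghr in liver gave r 0.35, and Igf1 and Igfbp1 r -0.17.

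In adipose tissue several relations changed when mouse 19 was left out. Igf1 and Igfbp4 gave r 0.76 over 16 samples (permutation p = 0.0186, adjusted p = 0.0808) and -0.037 without it, and Igf1 and Ghr gave 0.73 and, without it, -0.65 (permutation p = 0.00953, adjusted over the 6 adipose pairs p = 0.0572). Igf1 and Igfbp5 gave 0.38 and, without it, -0.58 (permutation p = 0.0201, adjusted p = 0.0604), and Igf1 and Igfbp3 gave -0.27 and -0.52. Igf1 and Igfbp7 gave 0.58 and 0.17, and Igf1 and Igfbp6 0.37 and -0.064. The genes most like Igfbp7 over the 16 adipose arrays were Slc6a6 (Pearson r 0.86), C4b (0.84) and Pex14 (0.83), and without mouse 19 P2ry13, Slc6a6 and Epm2aip1 (0.81, 0.80 and 0.78). Those most like Igf1 were Adipoq, Ltc4s and Crat (each 0.92 to 0.91), and without mouse 19 Nfx1, Get4 and Idua (0.90, 0.89 and 0.88).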

How the data were processed

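The intensity table that the authors deposited, made in GenomeStudio, holds linear values of 25697 probes on 31 arrays, and its arrays, of both tissues, share 1 distribution. The intensities and the differences between tissues given here rest on that shared distribution, which was there before the normalization described below. Low signal was filtered on the detection p-value, which the authors deposited beside each intensity. A second table of intensity values, processed further by the authors, was an alternative. Of the probes, 23978 carried exactly 1 gene symbol in the platform annotation, and the 1719 that did not were left without a gene. Background correction, quantile normalization and log2 (offset 16) were done with neqc of limma 3.58.1 in R 4.3.3, within each tissue, or over all 31 arrays for comparisons of tissues. Probes with a detection p under 0.01 on at least 7 liver or 8 adipose arrays were kept, and where several probes of a gene were kept the brightest stood for it. Groups were compared with limma, two-sided, with Benjamini-Hochberg adjustment over all genes (or probes) tested, and the code was tested on simulated data. The number of arrays limits the precision, and no depth exists for intensities.

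All 10 members are named. Other genes of the axis are named when called within a tissue, and the 3 most correlated genes are named for the member with the smallest p and for Igf1. The members and lists were chosen with earlier results of these data known. Alternatives were other normalizations, filters, probe rules, chip and replicate number as blocks, the SAM statistic and leaving out each mouse.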

Additional observations from a re-analysis of the deposited data

Results flagged for a closer look

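Within groups, 44 sets of values (each kept probe of a member in each group) were searched for a single mouse far from the others, and chance alone marks about 1 in 20. There were 7, of which 6 came from IH adipose mouse 19, which was the lowest in each. The gap to the nearest mouse as a share of the whole range was 0.803 for Igf1, 0.784 and 0.713 for the brighter and dimmer Ghr probe, 0.670 and 0.553 for the brighter and dimmer Igfbp4 probe and 0.695 for Igfbp5. The 4 epididymal genes were detected on this array, and their part in these values was not tested. The seventh was IH liver mouse 20 on the dimmer Igfbp4 probe, at 5653 and with a share of 0.671.

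Exposure effects that differed between the tissues (liver minus adipose tissue, limma) were those of Igfbp7 (0.64), the dimmer Ghr probe (1.64), Adam9 (3.28) and Grb14 (1.22). The Grb14 value is that of its brighter probe, detected in 4 of 8 IH and 6 of 8 NO adipose samples.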

How the results depend on the processing

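Most calls kept their side of the threshold. The count of members called in adipose tissue was 3 in the reported analysis, 5 with the SAM statistic (Igfals and Igfbp2 added), 2 to 4 under the other settings and 2 to 4 when each mouse was left out, and in liver it was 0 under every setting run. The count for the difference between tissues was 1, and 0 with chip as a random block, 2 with quantile normalization without background correction (Igfbp6 added) and 2 with the mean of the kept probes (Ghr added). Igfbp6 was detected in 0 of 7 IH and 1 of 8 NO livers, so its added call rests on no measured effect in liver. Without a detection filter and with all 31 arrays together, Igfbp6 missed the threshold in adipose tissue (adjusted p = 0.0504 and 0.0508).

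Of differences that were not called, those of Ghr and Igfbp4 in liver changed sign with the mean of the kept probes (0.11 and 0.13) and with the other probe (0.27 and 0.28), and that of Igf1 in adipose tissue without the 3 mice with epididymal genes (0.050), an alternative chosen after seeing the data. Leaving out each mouse, the liver differences ranged from -0.056 to 0.11 for Igfals, -0.094 to 0.030 for Ghr, -0.64 to 0.33 for Igfbp1, -0.18 to 0.092 for Igfbp2, -0.076 to 0.025 for Igfbp4 and -0.16 to 0.44 for Igfbp5. The count of all liver genes called, 60, ranged from 5 (without NO mouse 4) to 100 (without NO mouse 1), and was 5 with chip as a random block and at most 172 elsewhere. The cause was not tested.

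The labels do not say that a number marks 1 mouse in both tissues. Over 15 pairs the correlation of same-numbered samples had a median of 0.19 (from -0.06 to 0.30). Among the 8 adipose samples of the same exposure, 8 of 15 livers correlated best with that of their own number. With the replicate block, 9 members differed between tissues in IH mice and 9 in NO mice, and 1 for the difference of effects, the same counts as without it. Signal near background limits Igfbp3, Igfbp6 in liver, Igfbp1 and Igfbp2 in adipose tissue.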
